A study of Homo sapiens with 2 samples.

Results

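The genes described here encode the subunits of respiratory complexes I to IV and of the ATP synthase (complex V), together with the assembly factors that build the complexes and do not stay in them. Members were taken by symbol (NDUF, SDHA to SDHD, UQCR, COX and ATP5 for subunits, and NDUFAF, SDHAF, UQCC, COA and COX10 and above for assembly factors), with pseudogenes and antisense genes left out. This gave 114 of 19775 annotated genes, 80 subunits and 34 assembly factors, and the symbol rule takes the mitochondrially encoded COX1, COX2 and COX3 as well. Symbols decide membership, but the set and its division into subunits and assembly factors were chosen by the Glivec to untreated signal ratios measured on these same 2 arrays, so its counts and medians are descriptions and support no test.

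Signals were measured in Eol1 cells, an established line from a human eosinophilic leukaemia in which FIP1L1 is fused to the kinase PDGFRA. In the Glivec group the cells were kept for 4 h with 100 nM Glivec (imatinib, a kinase inhibitor that acts on PDGF receptors, KIT and ABL), and the untreated group is the same line without the drug. Each group is 1 sample on 1 Affymetrix array, so no difference has a replicate check and no p-value is given. The values are MAS5 signal intensities.

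The respiratory chain passes electrons from NADH (complex I) and succinate (complex II) through ubiquinone, complex III and cytochrome c to oxygen at complex IV, and the proton gradient built on the way drives ATP synthesis at complex V. Most subunits are encoded in the nucleus, while a small core of complexes I, III, IV and V is encoded in mitochondrial DNA. Assembly factors insert haem, copper, flavin and iron-sulphur centres, hold part-built modules, or stabilise single subunits. Blood leukaemia cells use the chain alongside glycolysis, and MYC is a known activator of many nuclear genes for mitochondrial proteins.

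Of the 114 members, 110 were measured, that is, had at least 1 array above a floor set at the median of all signals (13.7), and 108 were above it on both arrays. The other 4, COX7A1, COX7B2, COX8C and ATP5MF, were below the floor on both arrays, with signals between 0.939 and 12.5. The first 3 are isoforms known from muscle or testis, and ATP5MF, a subunit of the membrane sector of ATP synthase, was read by 1 probe set. The value of a gene is that of its brightest probe set (mean of both arrays), with the cross-hybridising _x_at type used only where there was no other. Ratios are Glivec over untreated on the log2 scale.

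Some facts of the arrays bear on every value. Both arrays had been scaled to the same 2% trimmed mean (100.014), while the 18 spike-in probe sets added at hybridisation had a median log2 ratio of 0.74 (0.42 to 0.89). Scaling to these spike-ins would move the median of all measured genes from 0.10 to -0.59, a shift of -0.69, so every ratio here is a difference from most other genes. For GAPDH the 3' to 5' signal ratio was 1.04 in treated and 0.925 in untreated cells, and for ACTB it was 1.23 against 1.17. Of 8 eosinophil marker genes with a probe set, PRG2 and RNASE2 had signals of 2146 to 6302 on both arrays. EPX was above the floor only with Glivec (27.2 against 12.6) and CLC only without (13.2 against 19.4). IL5RA, SIGLEC8, GATA1 and PRG3 were below the floor on both arrays, so the eosinophil lineage of the line rests here on PRG2 and RNASE2. The summed signal of these 8 genes was 9252 with Glivec and 6946 without. Both monocyte markers with a probe set were above the floor on each array, LYZ at 5482 with Glivec and 4041 without. Of 5 T and NK markers 1 was above it with Glivec and 2 without. The part of these differences in the results was not tested. Fewer transcripts per cell and fewer cells of a kind cannot be told apart in such bulk RNA.

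Subunits and assembly factors lay apart. The 76 measured subunits had a median log2 ratio of 0.11, next to 0.10 for all 12705 measured genes, and 50 of them (65.8%) were above 0 against 59.0% of all genes. The 34 assembly factors had a median of -0.30, and 26 of them (76.5%) were below 0 against 41.0% of all genes. The medians differed by 0.42, and by 0.26 to 0.48 under every other way of scaling, flooring or choosing probe sets that was tried. The sign of the subunit median depended on scaling, at -0.029 with quantile normalization, -0.012 after loess and -0.62 with spike-in scaling, whereas the assembly factor median stayed between -0.23 and -1.04. The SD over members was 0.31 (quartiles -0.080 and 0.23) for the subunits and 0.57 (quartiles -0.61 and -0.049) for the assembly factors. Genes of other kinds also differed in spread by signal. Those within the middle range of subunit signals (902 to 3305) had an SD of 0.39, and those within the assembly factor range (154 to 450) 0.51. The part of signal in the spread of the members was not tested.

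Counted at a difference of 1.5-fold, 10 of the 34 assembly factors (29.4%) were lower with Glivec and 2 (COX17 and COX19) higher. Of the 76 subunits 2 were higher (COX6A2 and COX3) and 0 lower. Subunits at least 1.5-fold lower numbered 42 with spike-in scaling, 2 with only _at probe sets, and 1 each with median centring, the floor at percentile 40 and a pseudocount in place of the floor. Among all measured genes 8.33% were at least 1.5-fold lower and 13.5% at least 1.5-fold higher. The share was smaller in bright genes: of 1012 other genes within the middle range of subunit signals (902 to 3305), 5.1% were lower and 3.8% higher. At 2-fold only COA7 and NDUFAF4 were lower, where 2.63% of all genes were, and only COX6A2 was higher, where 3.13% were. The split over all members, 4 higher and 10 lower (28.6% higher), depended on the scaling. Quantile normalization gave 3 higher and 9 lower, where 11.1% and 9.5% of all genes were. Median centring gave 3 and 13 beside 9.83% and 11.0% of all genes, and loess 3 and 11 beside 8.6% and 11.1%. Scaling to the spike-ins gave 1 and 70 beside 1.22% and 50.5%.

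**Figure D1:**
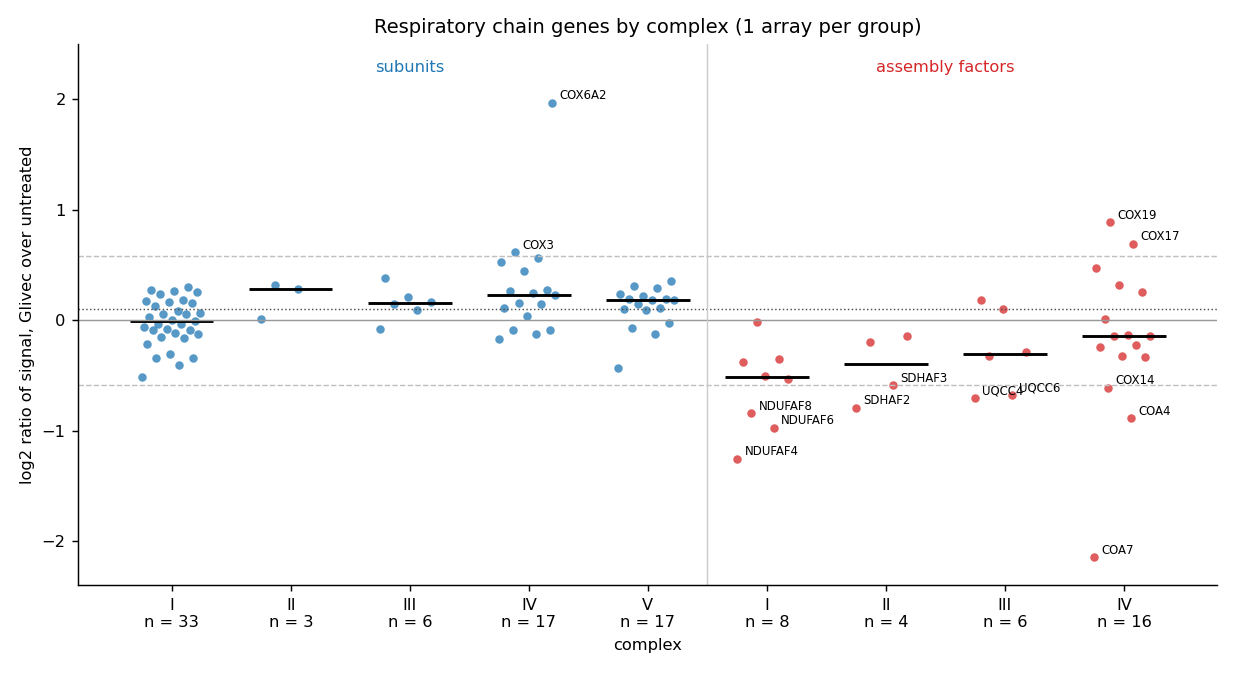
Log2 ratio of signal (Glivec over untreated, vertical axis) for each of the 110 measured genes, by complex, with 76 subunits in blue and 34 assembly factors in red. Black bars are group medians, the dotted line is the median of all measured genes (0.10), dashed lines mark 1.5-fold and genes past it are named; COX6A2 is a lower bound. The subunit columns have medians from -0.0057 to 0.28, with the median over all subunits below 0 under quantile normalization, loess and spike-in scaling, and the assembly columns medians from -0.52 to -0.14.

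The assembly factors of complex I had a median of -0.52 over 8 genes, of which 3 were at least 1.5-fold lower and the other 5 between -0.53 and -0.021. NDUFAF4, which acts with NDUFAF3 early in complex I assembly, had a signal of 504 with Glivec and 1202 without, a ratio of -1.25 (2.39-fold lower). Its other probe set, dimmer, gave -1.19, so both readings are of nearly equal size. NDUFAF6 had a signal of 315 against 620 (-0.98), with -1.08 by its other probe set. NDUFAF8 had 361 against 647 (-0.84) by 1 probe set. The smaller differences were NDUFAF5 at -0.53, NDUFAF2, a chaperone of late complex I assembly, at -0.50, and NDUFAF3 at -0.38. NDUFAF1 was at -0.35 and NDUFAF7, an arginine methyltransferase of a core subunit, at -0.021 with signals of 152 and 154, nearly equal. Its other probe sets gave 0.032 and 0.22.

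The 4 assembly factors of complex II, the succinate dehydrogenase, were below 0 too, with a median of -0.39. SDHAF2, which is needed for the attachment of flavin to SDHA, had a signal of 319 with Glivec and 552 without (-0.79, 1.73-fold lower). SDHAF3, an LYR-motif factor for the iron-sulphur subunit, had 214 against 322 (-0.59), just past 1.5-fold. SDHAF1 was at -0.19 by its brighter and -0.65 by its other probe set, and SDHAF4 at -0.15.

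For complex III the median was -0.31 over 6 factors. UQCC4 had a signal of 142 against 231 (-0.70) and UQCC6 120 against 192 (-0.68), although the other UQCC6 probe set gave only -0.18. UQCC3 was at -0.33. UQCC5 probe sets ran from -0.68 to 0.25, and the one that stands for the gene gave -0.29. UQCC1 and UQCC2, which act together on cytochrome b, were at 0.10 and 0.18, and the UQCC2 signals (20.8 and 18.3) were close to the floor.

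Complex IV factors spread most, from -2.15 to 0.89 around a median of -0.14 over 16 genes. COA7, a factor of the intermembrane space, had the lowest ratio of all members: its signal was 58.7 with Glivec and 260 without, 4.43-fold lower, and the other probe set gave -1.92 from signals of 36.9 and 139. COA4, a twin-CX9C protein of the intermembrane space, had 265 against 490 (-0.89), and COX14, which stabilises newly made COX1, 326 against 499 (-0.61). Each of these last 2 was read by 1 probe set. The factors for copper delivery did not lie together: COX11 was at -0.34 with all 4 probe sets below 0, COX17 was at 0.69 from signals near the floor (26.8 and 16.6) and at 0.10 with the floor at the 60th percentile, and COX19 was at 0.89 (80.3 against 43.4) or 0.45 by its other probe set. The haem A enzymes differed in sign as well, with COX10 at -0.24 and COX15 at 0.47 (0.19 to 0.52 over 4 probe sets). COX18, an insertase for COX2, was at 0.32, COA5 at 0.25, COA3 at -0.32 and COX16 at -0.23.

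Where an assembly factor at least 1.5-fold lower had several probe sets above the floor, they were all below 0 (4 of 4 genes), and 6 rest on 1 probe set. The probe set that stands for each gene is below 0 by the selection. Only the other one adds a reading, and for UQCC6 it was -0.18. Over all 16 assembly factors that have more than 1 such probe set, 7 had all of them below 0 and 6 had probe sets of both signs. The SD between probe sets of 1 gene, pooled over 5603 genes, was 0.325, from 0.435 in the dimmest to 0.229 in the brightest of 4 signal classes. It covers the reading of a gene on these arrays and no variation between cultures. Of the 10 lower factors 8 stayed at least 1.5-fold lower with quantile normalization (COX14 and SDHAF3 did not), 9 with the mean over probe sets (UQCC6 did not), and all 10 with the other settings that used the same probe sets or the brightest of any type. With only plain _at probe sets 7 had a value. These 7 are read by an _at probe set already, so this setting repeats their values and is no further check.

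**Figure D2:**
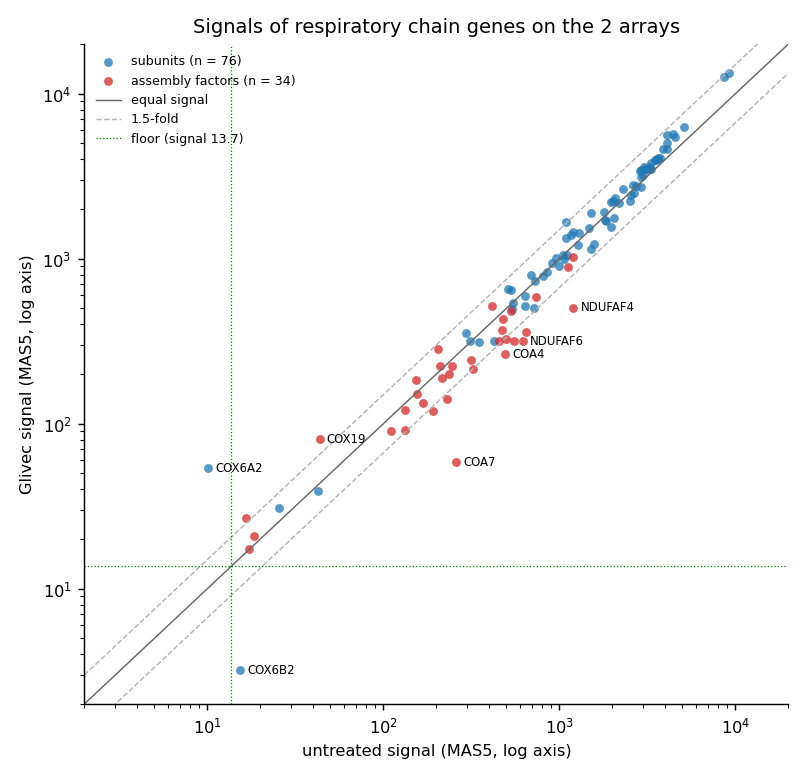
MAS5 signal with Glivec (vertical) against untreated (horizontal), both on log axes, for 76 subunits (blue) and 34 assembly factors (red); the solid line marks equal signal, dashed lines 1.5-fold and dotted lines the floor of 13.7. Among genes above the floor on both arrays COA7 (58.7 against 260) and NDUFAF4 (504 against 1202) lie farthest below the line; COX6B2 (3.20 against 15.4) lies below it with its Glivec signal under the floor, and COX6A2 (53.7 against 10.2) farthest above it.

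The upstream sequence of the members was read for short motifs of factors known to act on nuclear genes of mitochondrial proteins. RefSeq promoters (GRCh38.p14, from 250 bases before to 50 after the start) were present for 97 members. The E-box CACGTG, the site type of MYC and MAX among others, occurred in 5 of 31 assembly factor promoters (16.1%), 7 of 66 subunit promoters (10.6%), 10.2% of promoters of measured genes and 7.43% of all 27305 promoters. Of 9 promoters of the factors at least 1.5-fold lower, 3 held it. The 120 bases before the start of those 3 genes, and of the subunit gene NDUFA7 with a ratio of 0.26, are shown with the E-box in capitals.
COA7 (chr1:52698348-52698467, minus strand): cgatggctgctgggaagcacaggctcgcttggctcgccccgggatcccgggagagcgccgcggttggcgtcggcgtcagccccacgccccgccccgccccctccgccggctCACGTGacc
UQCC6 (chr12:103957216-103957335, minus strand): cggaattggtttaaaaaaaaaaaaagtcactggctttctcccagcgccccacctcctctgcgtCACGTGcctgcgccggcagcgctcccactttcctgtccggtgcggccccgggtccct
COX14 (chr12:50112116-50112235, plus strand): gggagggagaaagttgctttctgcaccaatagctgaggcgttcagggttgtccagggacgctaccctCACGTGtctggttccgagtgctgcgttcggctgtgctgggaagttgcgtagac
NDUFA7 (chr19:8321376-8321495, minus strand): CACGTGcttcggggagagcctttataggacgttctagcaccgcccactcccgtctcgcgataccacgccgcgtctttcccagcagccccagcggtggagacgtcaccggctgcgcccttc

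The E-box began 9 bases before the start in COA7, 57 in UQCC6, 53 in COX14 and 120 in NDUFA7. Among assembly factors it also occurred in NDUFAF5 and UQCC5, with ratios of -0.53 and -0.29. The 7 subunit genes that held it lay on both sides of 0. ATP5PB (0.29), NDUFA7 (0.26), UQCR11 (0.21) and ATP5ME (0.088) were above 0, and NDUFS7 (-0.034), NDUFA11 (-0.15) and ATP5MC1 (-0.44) below it. The motif GCATGCGC, part of the palindromic site of NRF1, a known activator of respiratory chain genes, occurred in 18 of 97 member promoters (18.6%) against 3.27% of all promoters and 5.44% of those of measured genes. Its share was 18.2% of subunits and 19.4% of assembly factors, and 2 of the 9 lower factors held it. It is shown in capitals, with any overlapping match on the other strand, in the 120 bases before the start of SDHAF2, COX17 and SDHD, whose ratios of -0.79, 0.69 and 0.32 lie on both sides of 0.
SDHAF2 (chr11:61430004-61430123, plus strand): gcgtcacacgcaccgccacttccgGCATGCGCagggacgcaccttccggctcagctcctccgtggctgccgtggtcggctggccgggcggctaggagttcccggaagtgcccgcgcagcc
COX17 (chr3:119677407-119677526, minus strand): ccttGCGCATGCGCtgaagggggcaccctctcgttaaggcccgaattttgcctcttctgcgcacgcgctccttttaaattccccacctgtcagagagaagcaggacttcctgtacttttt
SDHD (chr11:112086753-112086872, plus strand): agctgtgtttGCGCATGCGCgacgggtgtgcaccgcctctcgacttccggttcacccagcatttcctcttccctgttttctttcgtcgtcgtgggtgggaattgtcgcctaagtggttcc

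The ETS motif CCGGAAGT occurred in 9 of 66 subunit promoters (13.6%) and 7 of 31 assembly factor promoters (22.6%) against 4.44% of all promoters and 8.56% of those of measured genes. The YY1 motif AAGATGGC occurred in 10 (15.2%) and 2 (6.45%) against 3.03% and 5.34%. Both strands were searched. A match is a stretch of letters in a window and not a measured binding site, and these 2 arrays hold no measure of binding.

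Subunits of complex I, the NADH dehydrogenase, were centred on 0, with a median of -0.0057 over 33 genes, 16 above and 17 below 0 and none past 1.5-fold. The lowest was NDUFA8, with signals of 499 and 716 (-0.52). NDUFS6 was at -0.40 (1147 against 1516) and NDUFV2, which holds an iron-sulphur centre next to the flavin, at -0.34 (1554 against 1972). The highest were NDUFB5 at 0.30, NDUFB11 at 0.28 and NDUFA7 at 0.26. When the subunits were divided by their place in the complex, a grouping made after the values were seen, the matrix arm that takes up NADH had a median of -0.047, with 10 of 14 genes below 0. The membrane arm that pumps protons had a median of 0.10, with 11 of 18 above 0. NDUFAB1, the acyl carrier protein present in both arms, was at 0.064.

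NDUFB2 was at -0.34 and -0.60 by its brighter probe sets and 0.32 by a dim one. NDUFB8 was at -0.090 by the one that stands for it and 1.02 by a dim one (75.2 against 37.2). NDUFV3 probe sets gave 0.029 and -0.60. These 3 genes show how far dim probe sets of 1 gene could differ. Of the 39 subunits read by more than 1 probe set above the floor, 18 had probe sets of both signs.

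The 3 subunits of complex II among the members were SDHD at 0.32 (1889 against 1514), SDHA, the flavoprotein, at 0.28 by an _x_at probe set, and SDHC at 0.010 (736 against 731). Complex III subunits had a median of 0.16 over 6 genes. UQCRB, which binds ubiquinone, was highest at 0.38 (5714 against 4394), with all 4 of its probe sets between 0.21 and 0.38. UQCR11 was at 0.21 and UQCR10 at 0.16. The core proteins UQCRC1 and UQCRC2 were at 0.15 and 0.093, and UQCRQ was at -0.081. Thus for complexes II and III, as reported, the subunits were near or above 0 where their assembly factors had medians of -0.39 and -0.31. With spike-in scaling, which put the median of all genes at -0.59, SDHA, SDHC and SDHD were at -0.46, -0.73 and -0.42. Complex III subunits were then between -0.82 (UQCRQ) and -0.36 (UQCRB).

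Complex IV holds the 3 mitochondrially encoded members. COX1, the catalytic subunit, had signals of 12690 with Glivec and 8566 without (0.57). COX2, which takes electrons from cytochrome c, had 13256 and 9213 (0.53), and COX3 had 1676 and 1094 (0.61) by an _x_at probe set. The other chain genes of mitochondrial DNA with a probe set were at 0.59 (ATP6), 0.62 (ND4), 0.66 (ND6) and 0.72 (ND2), so that all 7 lay between 0.53 and 0.72 by the probe sets that stand for them. The other ATP6 probe set gave -0.012. The strand that encodes ND6 is opposite to that of the other 6. Bright genes of other kinds were higher as well: the 100 brightest genes that are no members had a median of 0.51, and all 100 were above 0. Their mean signals were at least 5062, above those of COX3 and of ND6 (525 with Glivec and 331 without). Other genes with a mean signal of 1000 to 3000, the range of COX3, had a median of 0.0054. COX1 and COX2 were at -0.011 and -0.059 with quantile normalization and at 0.15 and 0.099 after loess, whereas COX3, of lower signal, was at 0.62 and 0.60. With spike-in scaling COX1, COX2 and COX3 were at -0.17, -0.21 and -0.12.

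The nuclear-encoded complex IV subunits had a median of 0.15 over 14 measured genes. COX7A2, an outer subunit of the complex, was at 0.45 (5598 against 4101), COX6B1 at 0.25, COX6A1 at 0.23 and COX4I1 at 0.15, followed by COX8A at 0.11 and COX7B at 0.035. COX5B was at -0.089 by its brightest probe set, -0.12 and -0.15 by 2 others, and 1.10 by a dim one (112 against 52.6). COX7C was at -0.093, but its _x_at probe sets, which are brighter, gave 0.26 and 0.35. COX7A2L, known for its part in supercomplexes, was at -0.13.

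Of the tissue-restricted isoforms of complex IV, COX6A2, the heart and muscle form of COX6A1, stood out by size. Its signal was 53.7 with Glivec and 10.2 without, below the floor, so it was at least 3.92-fold higher by its 1 probe set. With the floor at the 60th percentile the same bound was 1.11 on the log2 scale. COX4I2, the lung isoform of subunit IV, was dim on both arrays (30.8 and 25.4, a ratio of 0.28). COX6B2, known from testis, was at 15.4 without Glivec and at 3.20, below the floor, with it, so its ratio depends on the floor. It was at least 1.12-fold lower, or -0.88 on the log2 scale with the floor at percentile 40.

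ATP synthase subunits had a median of 0.18 over 17 genes, with 13 above 0 and none past 1.5-fold. In the catalytic head and central stalk, ATP5F1D was at 0.36 (656 against 513), ATP5F1A at 0.31 (6298 against 5082), ATP5F1E at 0.19 and ATP5F1B at 0.18. ATP5F1C was at -0.13 by a dim probe set, while its 3 bright _x_at probe sets gave 0.15 to 0.23. In the peripheral stalk ATP5PB was at 0.29, ATP5PO at 0.23 and ATP5PF at 0.15. ATP5PD was at -0.070 and, by a dim probe set, at 0.89. The 3 genes for the same mature subunit c of the rotor did not lie together: ATP5MC1 was at -0.44 (316 against 427), ATP5MC2 at 0.11 and ATP5MC3 at 0.10, or -0.32 by its dimmest probe set. ATP5IF1, the inhibitor of ATP hydrolysis, was at 0.22, with all 3 probe sets between 0.10 and 0.31.

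Signal moved with the ratio, and the groups differ in signal. When the measured genes were divided into 10 signal classes of equal size, 57 of the 76 subunits and 2 of the 34 assembly factors lay in the brightest class. Nuclear-encoded subunits with a mean signal of 1000 to 3000 had a median of -0.00027 over 28 genes, beside 0.0054 for 853 other genes in that range. Those with a mean signal of 3000 to 6000 had a median of 0.18 over 23 genes, all 23 above 0, beside 0.21 for 153 other genes, of which 126 were above 0. Subunits of either range were thus close to other genes of like signal. For the assembly factors, 3136 other genes within the middle range of their signals (154 to 450) had a median of 0.035, and 9.57% of these were at least 1.5-fold lower. The factor median of -0.30 covers all 34, with mean signals from 17.4 to 1104. In classes 6, 7, 8 and 9, counted from the dimmest, factor medians were -0.33, -0.19, -0.56 and -0.59. All genes there had medians of 0.091, 0.044, 0.0062 and -0.0050. The 1 factor of class 4 was at 0.89, beside 0.19 for all genes. Taken against the median of its own signal class, the assembly factor median was -0.34, with 28 of 34 below it, and the subunit median 0.037, with 31 of 76 below it.

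**Figure D3:**
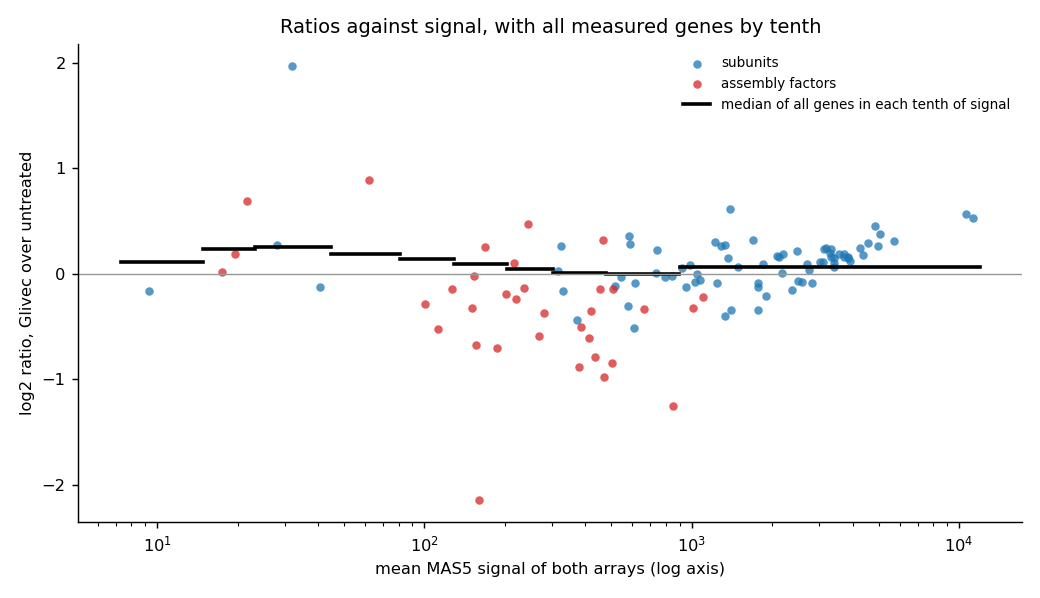
Log2 ratio (Glivec over untreated) against the mean MAS5 signal of both arrays (log axis) for 76 subunits (blue) and 34 assembly factors (red); black bars give the median of all measured genes in each of 10 signal classes. In classes 6 to 9, where the bars lie between -0.0050 and 0.091, 21 of 25 assembly factors were below 0.

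Other genes of the same system were taken from lists by function. The 35 assembly factors whose symbols fall outside the rule had a median of -0.059, so the median of the members was lower than that of factors named otherwise. Of these 35, 6 (17.1%) were at least 1.5-fold lower and 0 higher, against 8.33% and 13.5% of all measured genes. SCO2, a copper chaperone of COX2, was lowest at -1.33 (148 against 371). It was followed by PET117 at -1.04 (146 against 300), or -0.30 by its other probe set, and CMC2 at -0.98. FASTKD2, at -0.89, had probe sets up to 0.26. The highest were ATPAF2 at 0.51, CEP89 at 0.35 and PNKD at 0.26. Other probe sets of these 3 genes gave ratios down to -0.00025 for ATPAF2, -0.91 for CEP89 and -0.56 for PNKD. BCS1L, which inserts the iron-sulphur protein of complex III, was at -0.75. Over both lists of assembly factors together 16 of 69 (23.2%) were at least 1.5-fold lower, 2 were higher and the median was -0.19.

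Of the chain proteins outside the rule, CYCS, the electron carrier cytochrome c, had a signal of 2364 with Glivec and 4081 without (-0.79), with all 3 probe sets between -1.87 and -0.79. CYC1, the cytochrome c1 subunit of complex III, was at -0.022 (2659 against 2700), and DMAC2L at -0.16. The lowest ratio among subunits above the floor on both arrays was -0.52 (NDUFA8).

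Factors that express mitochondrial DNA had a median of -0.17 over 26 genes. Of these, 6 (23.1%) were at least 1.5-fold lower and 0 higher, against 8.33% and 13.5% of all measured genes. TWNK, the mitochondrial helicase, was at -2.15 (45.3 against 201) by 1 probe set. TFAM, which packages mitochondrial DNA and starts its transcription, was at -1.07 (238 against 498), with 4 probe sets between -1.07 and -0.71, and PNPT1 was at -0.95. The highest were MTERF1 at 0.56, MTERF2 at 0.42 and TUFM at 0.17. The 7 mitochondrially encoded transcripts were above 0 as reported, and so were the 100 brightest genes that are no members. Those 100 had mean signals of at least 5062, whereas COX3 (1676 against 1094) and ND6 (525 against 331) were dimmer. With quantile normalization COX1 and COX2 were at -0.011 and -0.059, and COX3 was at 0.62. With spike-in scaling COX1, COX2 and COX3 were at -0.17, -0.21 and -0.12.

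Regulators of mitochondrial gene expression had a median of 0.0012 over 17 genes. Of these, 4 (23.5%) were at least 1.5-fold lower and 1 (5.88%) higher, against 8.33% and 13.5% of all measured genes. The lowest were MYC at -2.76, the coactivator genes PPARGC1B at -1.66 (21.0 against 66.4, near the floor) and PPRC1 at -1.10 (73.5 against 158), with PPARD at -0.59 by 1 and up to 0.51 by another probe set. The highest were TFE3 at 0.64 (down to -0.18 by other probe sets), SIRT3 at 0.54 and CREB1 at 0.48 (down to -0.065), and NRF1 was at -0.29 (up to 0.11). The TCA cycle, which feeds the chain, had a median of 0.12 over 17 genes with none past 1.5-fold, from IDH3A at -0.56 to OGDH at 0.57. For comparison, 75 mitochondrial ribosomal protein genes had a median of -0.19, with 56 (74.7%) below 0 against 41.0% of all genes. At least 1.5-fold lower were 10 of the 75 (13.3%), against 8.33% of all genes. The 59 measured cytosolic ribosomal protein genes, of very high signal, had a median of 0.53. None of these differences between lists was tested.

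**Figure D4:**
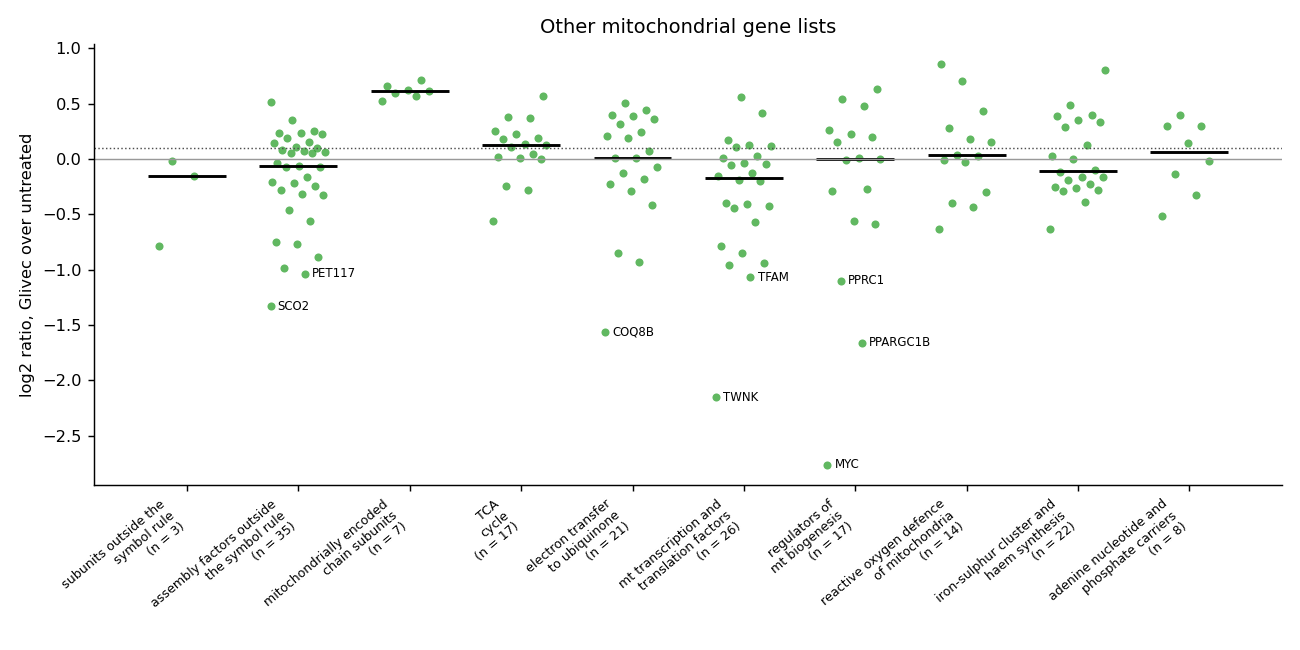
Log2 ratio (Glivec over untreated) of the measured genes in 10 lists of mitochondrial genes, with list medians as black bars, the median of all measured genes (0.10) as a dotted line and genes past 2-fold named. The 7 mitochondrially encoded subunits lie together between 0.53 and 0.72, of which COX1, COX2 and COX3 are below 0 with spike-in scaling. TWNK (-2.15), TFAM (-1.07) and SCO2 (-1.33) lie far below their list medians.

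**Figure D5:**
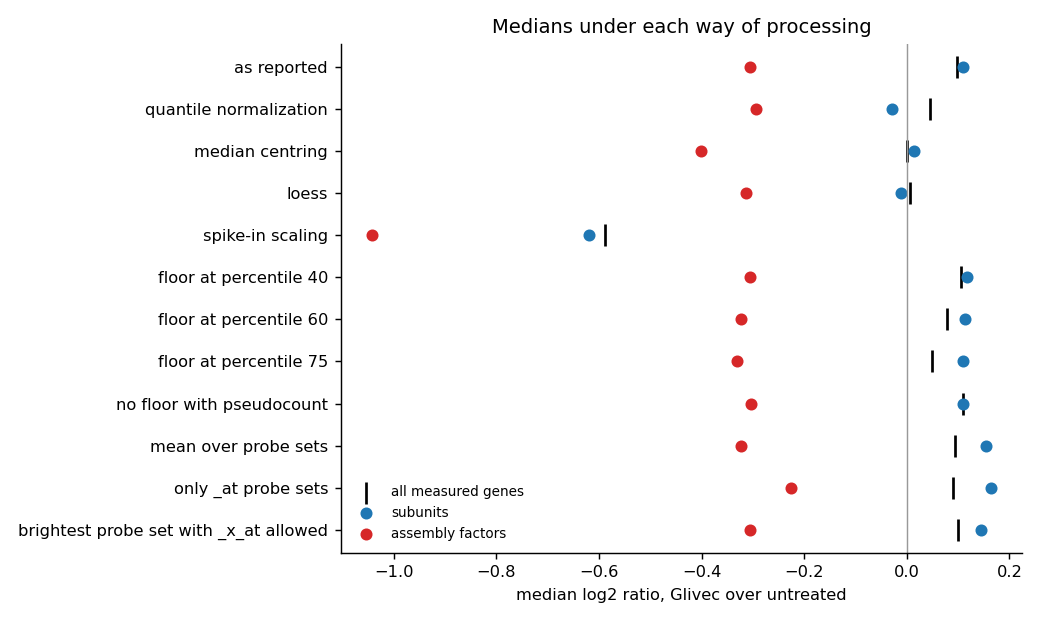
Median log2 ratio (Glivec over untreated) of subunits (blue), assembly factors (red) and all measured genes (black bar) under each way of processing. Across these settings the assembly factor median minus that of all genes lies between -0.454 and -0.316, and the subunit median minus that of all genes between -0.075 and 0.074; the subunit median itself is below 0 with quantile normalization, loess and spike-in scaling.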

How the data were processed

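Total RNA of 2 samples was hybridised to 2 Affymetrix arrays, 1 per group. The authors deposited linear signal intensities; per the submitters' processing notes the software was MAS5. Not given in the sources used here are its version and detection calls. The number of arrays limits the precision.

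Probe sets were named from the platform annotation, which can be old: of 42898 listed probe sets 41097 had 1 gene symbol and 1801 several, which were not used, and 11777 of 54675 are unnamed here. Entrez identifiers of all 114 members matched the RefSeq gene table, and 97 matched its promoter table. No coordinates go with the signals.

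A floor at the 50th percentile of non-control signals replaced any lower signal, and log2 followed. A ratio with 1 array at the floor is a bound. Counts used 1.5-fold. Named members (64) were those past 1.5-fold, bounds, the 3 highest and 3 lowest of each complex and kind, the brightest subunits, isoform pairs and genes with discordant probe sets. In the other lists up to 3 highest and 3 lowest were named. Further genes, members included, were chosen after their values were seen. Members and lists were chosen with earlier results of these data known.

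Alternatives were quantile normalization, median centring, loess (span 0.3), spike-in scaling, floors at percentiles 40, 60 and 75, a pseudocount of 1 without floor, other choices of probe set and of members, and 2-fold. The calculation was tested on simulated data. Python 3.11.15, numpy 2.4.6, pandas 2.3.3, statsmodels 0.14.6 and matplotlib 3.10.9 were used.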

Additional observations from a re-analysis of the deposited data

How the results depend on the processing

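No paired analysis was possible because the Glivec and the untreated group are 1 array each, and no replicate could be left out. For medians, a shift above 0.1 is given here. The subunit median turned sign with quantile normalization (-0.029), loess (-0.012) and spike-in scaling (-0.62). The difference between subunit and assembly factor medians moved to 0.26 with quantile normalization and 0.30 after loess. With spike-in scaling the assembly factor median was -1.04 and 28 assembly factors were at least 1.5-fold lower, where 50.5% of all genes were. Subunits at least 1.5-fold higher numbered 1 in place of 2 with median centring, spike-in scaling, the floor at percentile 75, a 2-fold threshold, and without tissue-restricted isoforms, bounds or mitochondrially encoded genes, and 5 with only _at probe sets. Subunits at least 1.5-fold lower numbered 0 as reported and 42 with spike-in scaling. At 2-fold, 2 assembly factors were lower. With spike-in scaling 75 of 76 subunits and 33 of 34 assembly factors were below 0; of the members past 1.5-fold COX17 and COX3 turned sign, to -0.050 and -0.12. The cause was not tested; spike-in scaling and centring shift all genes by construction. Allowing _x_at probe sets and leaving out mitochondrially encoded genes were chosen after seeing the data. Of 14 members past 1.5-fold, 11 stayed past it on the same side with quantile normalization, 13 with centring and after loess and 11 with spike-in scaling. For genes close to the floor, only a bound or a compressed ratio can be had.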

Other observations

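Each list of genes that supply the chain held genes above and below 0, and no difference between these lists was tested. Among genes that bring electrons to ubiquinone or make it, the median was 0.014 over 21 genes. Of these, 3 (14.3%) were at least 1.5-fold lower and 0 higher, against 8.33% and 13.5% of all measured genes. The kinase-like COQ8B had signals of 5.83 with Glivec, below the floor, and 40.6 without, at least 2.96-fold lower, although its other probe set gave 0.029. DHODH, the pyrimidine synthesis enzyme that passes electrons to ubiquinone, was at -0.93 with 3 probe sets between -0.96 and -0.56, and COQ10B was at -0.85. COQ5, a methyltransferase of ubiquinone synthesis, was highest at 0.51 (395 against 278).

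Genes for iron-sulphur clusters and haem had a median of -0.11 over 22 genes. GLRX5, a glutaredoxin of cluster transfer, was at -0.63 (593 against 917) and ALAD, the second enzyme of haem synthesis, at 0.80 (373 against 214). In the defence against reactive oxygen, SOD2 was at 0.86 (417 against 230) and the uncoupling protein gene UCP2 at 0.71 (1700 against 1043), while the list median was 0.032 over 14 genes. The lowest of this list were GLRX5, GSR at -0.44 (-0.0012 by its other probe set) and GLRX2 at -0.40. At least 1.5-fold higher were 2 (14.3%) and lower 1 (7.14%), against 13.5% and 8.33% of all measured genes. Adenine nucleotide and phosphate carriers had a median of 0.067 over 8 genes, with SLC25A5 at 0.40 and AK4 at -0.51 (down to -1.50 by other probe sets).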
